A study of Homo sapiens with 12 samples.

Results

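MCF10A cells carrying a doxycycline (Dox)-inducible TAZ-4SA were compared after 72 h in 0.05 µg/mL Dox with the same cells cultured without Dox (No Dox). RNA was sequenced from 3 libraries per group, 6 of the 12 libraries of the series, assigned to their groups by the sample labels. The other libraries, 3 at 24 h and 3 at 48 h in Dox, shared the estimate of the spread and served to place the 72 h values in time. All 6 libraries came from the same transduced line, grown in medium with horse serum, EGF, insulin, hydrocortisone and cholera toxin, so the inducible construct was present in both groups. Whether this line was 1 clone or a pool is not given in the sources used here. MCF10A is an immortalised, non-tumorigenic human mammary epithelial line, and it stands for epithelial cells in culture, not for the gland. Cells given Dox without the transgene and No Dox cells of a later time were not analysed here, so TAZ-4SA, Dox and time in culture cannot be told apart. Separate cultures are not stated for the replicates in the labels. Without them the p-values cover only the spread within groups among the 12 libraries fitted, which may be technical.

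TAZ, the protein of WWTR1, is a transcriptional co-activator. The Hippo kinases MST and LATS phosphorylate TAZ and its paralog YAP, which holds them in the cytoplasm and marks them for degradation. Without this phosphorylation, as in a 4SA form whose target serines are replaced by alanine, TAZ enters the nucleus and binds TEAD factors, which recognise DNA at the motif GGAATG and carry TAZ to its target genes. In mammary epithelium, TAZ activity is known for its links to proliferation, to loss of epithelial organisation and to the balance of basal and luminal identity.

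To check the labels, the induced gene was examined in every library. WWTR1 (ENSG00000018408, GRCh38 chromosome 3, 149517235 to 149736714, minus strand) was at 70.7, 69.5 and 75.0 CPM (counts scaled to TMM library sizes) in the No Dox libraries and at 974, 1061 and 948 CPM at 72 h. The groups did not overlap, and the 72 h mean was 13.9-fold higher (log2 fold change 3.79, SE 0.07, adjusted p = 1.68e-20). Per transcript length the step was larger, from 26.6 ± 2.88 to 1126 ± 127 TPM, a length-corrected share of transcripts, a ratio of 42.3, and the effective length that RSEM gave the gene was 3229 ± 253 nucleotides without Dox and 1111 ± 11 at 72 h. The symbol TAZ in older annotation names another gene, the mitochondrial enzyme tafazzin (TAFAZZIN), which had 37.2 ± 2.13 CPM without Dox and 28.1 ± 1.76 at 72 h. Of 8 mammary epithelial markers, all tested, 1 was called higher at 72 h (KRT18) and 3 lower (TP63, KRT5 and KRT17), with a median log2 fold change of -0.42. TP63 was down to 1.49 ± 0.118 CPM at 72 h. The 4 without a call included the epithelial adhesion genes EPCAM (79.9 ± 2.70 CPM without Dox and 131 ± 2.85 at 72 h) and CDH1 (220 ± 3.15 and 335 ± 4.18). The other uncalled markers, EGFR and KRT14, had lower means at 72 h. By sign, 3 of the 8 markers lay above No Dox and 5 below it. Values below are CPM as mean ± SD with n = 3 per group unless they are given for each library, and adjusted p are from the quasi-likelihood test of edgeR with Benjamini-Hochberg correction over all genes tested.

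Totals were 15534738 to 21460632 counts per library without Dox and 15787241 to 26570132 at 72 h, and 18268 to 19451 genes had a count in a library of either group. Calls, as higher or lower, needed both an adjusted p below 0.05 and a change of 2-fold or more in either direction (1 on the log2 scale). Of 14822 genes tested, 1505 were called higher at 72 h (10.2%) and 1828 lower (12.3%). The median log2 fold change over all genes tested was -0.02. Most called genes changed less than 4-fold, with 1071 of the higher and 1102 of the lower genes between 2-fold and 4-fold, while 98 were more than 16-fold higher and 191 more than 16-fold lower. Protein-coding genes were called in both directions in similar numbers (1282 higher and 1438 lower of 12597), whereas of 1423 lncRNA genes 151 were higher and 251 lower, with a median of -0.22. The libraries were tight, with a biological coefficient of variation of 5.71%, adjusted p alone passed for 69.2% of genes, and the libraries of the groups did not overlap for 72.9%. A small adjusted p was therefore common, and the results below are read by the fold threshold and by the share called. Counts of list members against No Dox are to be read beside the 10.2% higher and 12.3% lower of all genes tested. Some genes named below had 3 counts or fewer over either group. They passed the filter on counts through other libraries, so their calls could hardly be in the other direction. Such genes remain in the list counts and among the steepest changes.

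**Figure D1:**
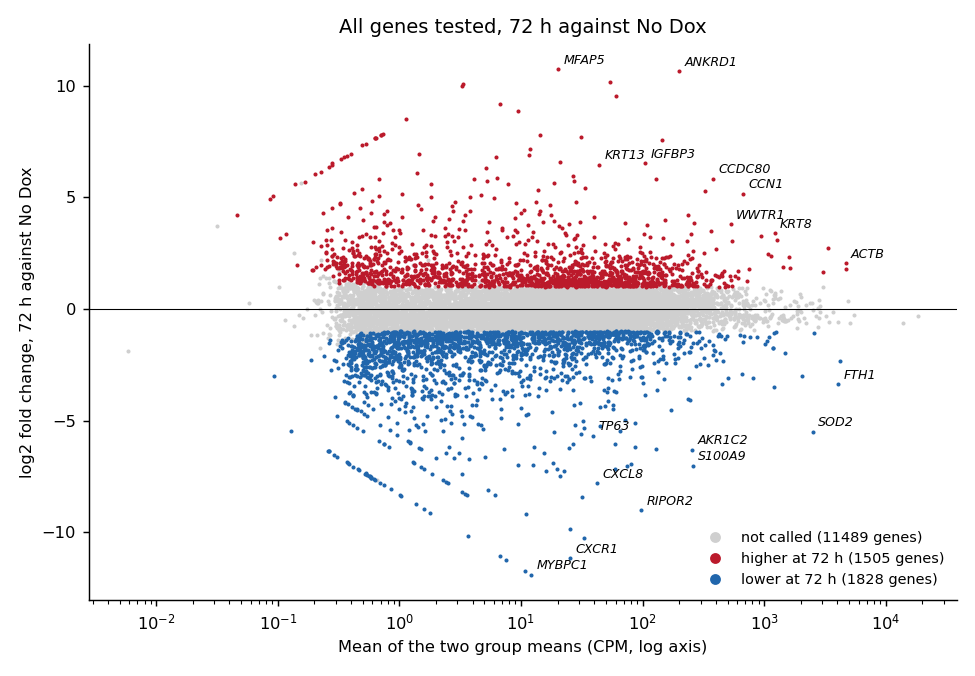
Each point is 1 of 14822 genes, with the mean of both group means in CPM (log axis) across and the log2 fold change of 72 h against No Dox upwards. Red points are the 1505 genes called higher, blue points the 1828 called lower and grey points the genes not called, and the called genes spread over the whole range of levels.

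The DNA upstream of the genes that rose was read from RefSeq promoter sequences (GRCh38.p14). The 250 bases before the start were searched on both strands, and 18902 promoters matched a gene of the data by symbol. CCN2 and ANKRD1 are shown because they are established TAZ targets with more than 1 TEAD motif in this window, and the capitals mark GGAATG or its reverse complement. CCN2 lies at chr6:131951373-131951622 and ANKRD1 at chr10:90921088-90921337, both on the minus strand.

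CCN2: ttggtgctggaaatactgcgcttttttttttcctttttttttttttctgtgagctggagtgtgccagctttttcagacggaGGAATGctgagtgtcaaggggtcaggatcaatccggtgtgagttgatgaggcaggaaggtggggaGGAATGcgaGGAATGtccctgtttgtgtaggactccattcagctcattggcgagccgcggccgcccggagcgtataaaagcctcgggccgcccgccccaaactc

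ANKRD1: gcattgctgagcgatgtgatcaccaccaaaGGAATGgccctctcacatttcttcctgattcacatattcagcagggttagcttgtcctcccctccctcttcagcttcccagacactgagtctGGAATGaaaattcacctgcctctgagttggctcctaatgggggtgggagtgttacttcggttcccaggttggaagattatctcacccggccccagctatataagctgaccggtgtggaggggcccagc

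In CCN2 the matches began 169, 104 and 95 bases before the start, and in ANKRD1 220 and 128 bases before it. GGAATG was found in 6 of 16 promoters of a YAP/TAZ target list (37.5%) and in 10.7% of all promoters. Among the genes called at 72 h it was found in 11.6% of 1088 promoters of higher genes and 9.59% of 1168 promoters of lower genes. The share was 9.04% for genes not called, 9.35% for all genes tested and 10.7% for all promoters. The differences between these shares were not tested. A match in this window is a description of the letters and not a shown binding site.

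The next set shows genes of mitosis, whose promoters often carry the CHR element TTTGAA, through which the DREAM complex represses and MYBL2 and FOXM1 activate transcription. The capitals mark TTTGAA or its reverse complement in CDC20 (chr1:43358731-43358980), PLK1 (chr16:23678639-23678888) and CCNB2 (chr15:59104896-59105145), all on the plus strand.

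CDC20: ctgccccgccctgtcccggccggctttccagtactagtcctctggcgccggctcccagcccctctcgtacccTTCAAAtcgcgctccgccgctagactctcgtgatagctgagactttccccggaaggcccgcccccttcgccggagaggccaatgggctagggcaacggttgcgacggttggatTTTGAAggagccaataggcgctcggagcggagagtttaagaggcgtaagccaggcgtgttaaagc

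PLK1: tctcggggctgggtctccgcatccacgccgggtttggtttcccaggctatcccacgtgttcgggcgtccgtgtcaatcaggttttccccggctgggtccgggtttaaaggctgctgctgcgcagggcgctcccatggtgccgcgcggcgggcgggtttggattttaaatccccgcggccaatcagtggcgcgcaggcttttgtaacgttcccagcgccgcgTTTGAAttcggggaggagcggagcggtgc

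CCNB2: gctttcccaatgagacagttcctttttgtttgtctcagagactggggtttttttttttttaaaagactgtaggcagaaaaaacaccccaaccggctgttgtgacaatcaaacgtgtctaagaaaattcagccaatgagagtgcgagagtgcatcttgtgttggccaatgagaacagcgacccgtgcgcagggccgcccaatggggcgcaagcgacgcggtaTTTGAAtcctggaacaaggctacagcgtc

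The element began 29 bases before the start in both PLK1 and CCNB2, and 178 and 65 bases before it in CDC20. It was found in 18 of 34 promoters of a list of mitosis genes (52.9%), against 11.6% of all promoters. The share was 12.6% for higher genes, 11.1% for lower genes and 8.48% for all genes tested. CCAAT, the box of the factor NF-Y, was found in 25 of these 34 promoters (73.5%), in 42.5% of promoters of higher genes, in 30.2% of those of lower genes and in 34.1% of all promoters. The E2F motifs TTTCCCGC and TTTGGCGC, searched together, were in 13 of 35 promoters of replication genes (37.1%) and in 2.38% of all. Their share was 3.77% for higher genes, 1.8% for lower genes and 3.09% for all genes tested. The AP-1 motif TGANTCA was in 4.04% of promoters of higher genes, 7.28% of those of lower genes, 3.44% of those of genes not called, 3.92% of those of all genes tested and 5.79% of all promoters. The NF-kB motif GGGANTTCC was in 2 of 19 promoters of NF-kB response genes (10.5%) and in 1.84% of all. It was in 2.02% of promoters of higher genes, 1.71% of those of lower genes, 2.21% of those of genes not called and 2.13% of those of all genes tested. No motif in this set contains another.

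**Figure D2:**
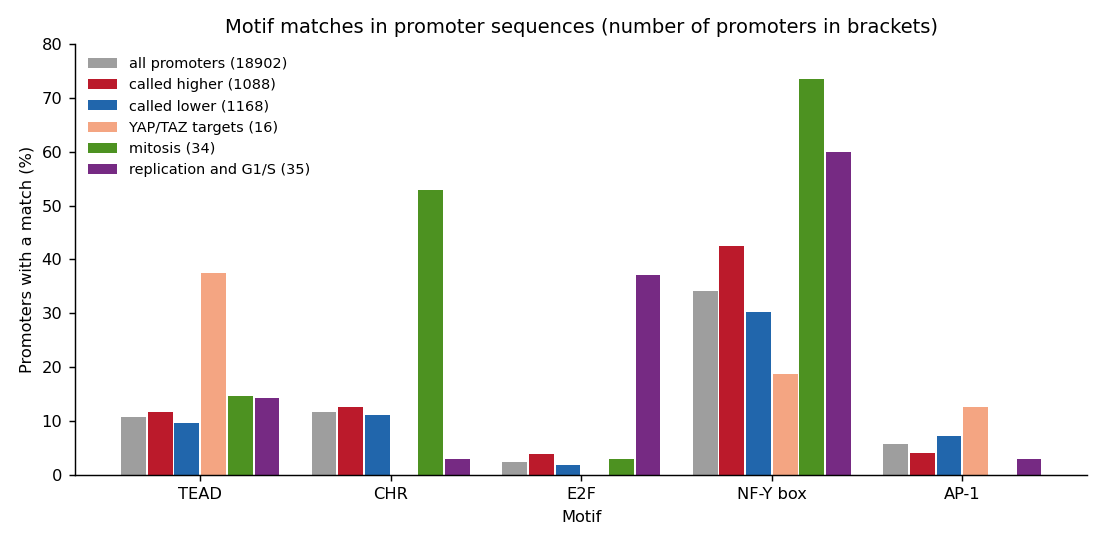
Share of promoters (%) with a match to each motif in the 250 bases before the start, by set, with the number of promoters in brackets. The mitosis list stands out for CHR (52.9%) and for the NF-Y box (73.5%), replication genes for E2F (37.1%) and the YAP/TAZ targets for TEAD (37.5%), while the genes called higher and lower lie close to all promoters for TEAD.

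To see how far TAZ targets were raised at 72 h, a list of 22 YAP/TAZ targets was examined. Of its members 13 were called higher, none lower and 9 not called, with a median log2 fold change of 1.34. ANKRD1, a nuclear protein of the muscle stress response, was at 0.184, 0.126 and 0.394 CPM without Dox and at 375, 407 and 418 CPM at 72 h, a ratio of 1702. CCN1, which encodes a matricellular protein that binds integrins, was at 35.0, 30.9 and 42.4 CPM and then at 1353, 1281 and 1283 (36.2-fold, log2 fold change 5.17, SE 0.08, adjusted p = 5.67e-22). Both genes were far apart between groups in every library. CCN2, its close relative, rose from 13.2, 11.2 and 16.5 to 113, 105 and 100 CPM (7.81-fold), and the insulin-like growth factor carrier IGFBP3 from 2.17, 2.34 and 2.22 to 206, 207 and 212 (93.2-fold). CCDC80, a secreted matrix protein, rose 57.8-fold from 13.1, 11.4 and 14.1 CPM to 726, 732 and 773. The other called targets rose by log2 fold changes from 1.03 (CRIM1) to 3.30 (TGFB2), and the latter had part of its reads shared with other genes. Members without a call lay between -0.74 (RBMS3) and 0.95 (NT5E).

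AREG, a ligand of the EGF receptor that is not in that list, was at 113, 117 and 123 CPM without Dox and 946, 963 and 1022 at 72 h (8.29-fold, log2 fold change 3.05, SE 0.05). The receptor tyrosine kinase AXL, a member of the list, rose 3.53-fold, from 78.2, 73.4 and 77.7 CPM to 270, 281 and 260.

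Of the DNA-binding partners, TEAD1 rose from 166 ± 4.96 to 363 ± 17.4 CPM (2.18-fold, log2 fold change 1.13), a call that was lost when the fold threshold itself was tested with glmTreat (adjusted p = 0.0812). TEAD4 was at 26.8 ± 1.83 and 44.5 ± 1.47 CPM (0.72), TEAD3 at 19.6 ± 0.646 and 26.1 ± 1.12 (0.41) and TEAD2 at 21.6 ± 1.2 and 14.5 ± 1.44 (-0.57), all under the fold threshold. VGLL3, a cofactor that competes with TAZ for TEADs, rose 4.05-fold to 145 ± 8.93 CPM. The paralog YAP1 was at 247 ± 6.25 CPM without Dox and 181 ± 12.6 at 72 h (-0.45). Of 21 tested genes that restrain TAZ in the Hippo pathway, 6 were called higher, 15 were not called and none was lower, with a median of 0.33, and 1 was called lower with effective-length offsets. The higher genes were the scaffold AMOTL2 (73.1 ± 3.32 to 447 ± 17 CPM, 6.11-fold), WWC1 (81.6 ± 2.93 to 358 ± 13.6, 4.39-fold), the kinase LATS2 (2.90-fold), the membrane scaffold NF2 (44.9 ± 2.75 to 115 ± 4.24, 2.56-fold), WWC2 and FRMD6. LATS2 and AMOTL2 are also in the target list. The kinases STK4 and LATS1 differed by -0.13 and -0.04 on the log2 scale.

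**Figure D3:**
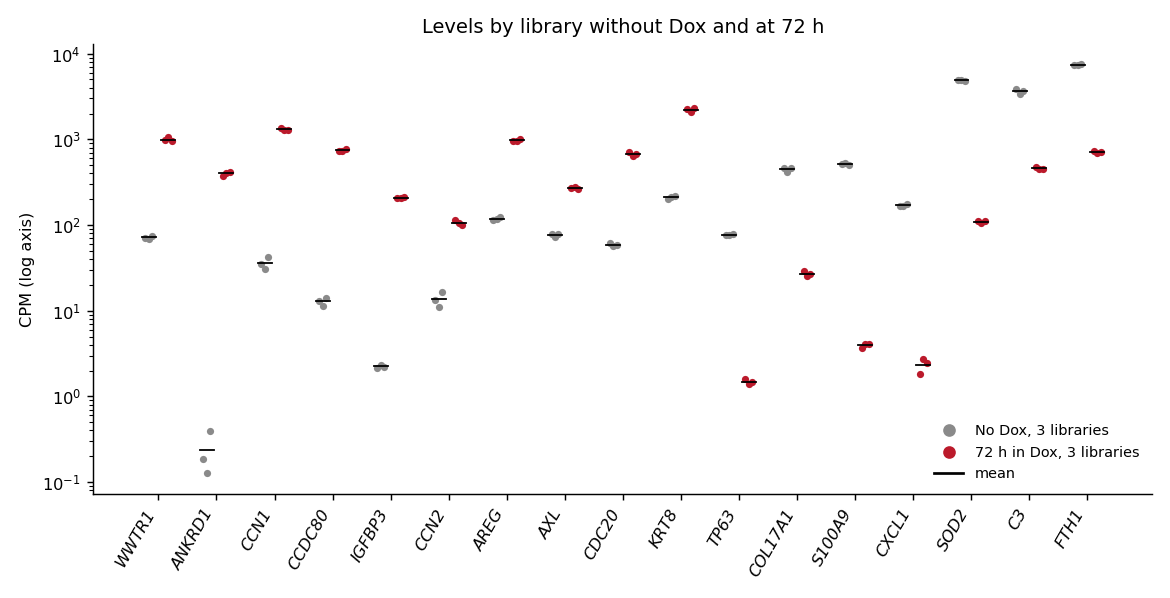
CPM of 17 genes (log axis) in the 3 No Dox libraries (grey) and the 3 libraries at 72 h (red), with group means as lines. Points of a group lie close together, and for all 17 genes the groups are separate, with ANKRD1 the widest apart (0.235 against 400 CPM).

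Proliferation genes rose together at 72 h. Of 40 genes of mitosis, all 40 were called higher, with a median log2 fold change of 1.92 and a range of 1.13 to 3.51, against 10.2% of all genes. CDC20, which switches on the anaphase-promoting complex in mitosis, was at 60.9, 57.2 and 58.4 CPM without Dox and 705, 642 and 671 at 72 h (11.4-fold, log2 fold change 3.51, SE 0.06, adjusted p = 1.43e-21). ANLN, which builds the cytokinetic ring, rose from 96.2 ± 1.6 to 545 ± 11.1 CPM (5.66-fold). The S-phase and mitotic cyclin CCNA2 rose from 51.5 ± 1.04 to 248 ± 6.91 (4.81-fold), and the spindle kinase AURKA from 37.1 ± 2.42 to 175 ± 5.02 (4.71-fold). None of the 40 differed by the call between 72 h and 24 h or between 72 h and 48 h. Of all genes, 12.3% were called in either direction against 24 h and only 3.24% against 48 h.

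Replication and G1/S genes were higher for 25 of 40, with none lower and a median of 1.16. TK1, the thymidine kinase of S phase, rose 4.88-fold to 108 ± 7.36 CPM, RRM2, a subunit of ribonucleotide reductase, 4.85-fold to 238 ± 9.82, and TYMS, which makes thymidylate, 4.10-fold to 157 ± 1.39. CDC6, a factor that loads the replicative helicase, rose from 21.7 ± 0.964 to 86.4 ± 5.06 CPM. Unlike mitosis genes, 9 members of this list were lower at 72 h than at 24 h, with a median of -0.67 for that comparison. Of all genes, 3.99% were lower in it. Of 25 Fanconi and recombination genes, which repair crosslinks and broken DNA, 15 were higher and none lower, with a median of 1.02. The ubiquitin-conjugating enzyme UBE2T, which acts in crosslink repair, rose from 18.5 ± 0.641 to 80 ± 6.83 CPM (4.33-fold). RAD54L, a motor protein of recombination, rose 3.19-fold to 38.2 ± 1.06 CPM.

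Among G1 cyclins, their kinases and inhibitors, 5 of 11 tested genes were higher and none lower. CCND1, the cyclin D that drives G1, was at 127, 124 and 121 CPM without Dox and 329, 354 and 339 at 72 h (2.74-fold), and it had been at a mean of 722 CPM at 24 h. Its partner kinase CDK6 rose from 71.1 ± 3.95 to 162 ± 10.1 CPM, and CDK2 from 47.8 ± 2.34 to 150 ± 6.13. Of the CDK inhibitors, CDKN1A and CDKN2D were called higher. CDKN1A (p21) was at 84.9, 86.1 and 97.6 CPM and then at 333, 289 and 318 (3.50-fold), and CDKN2D rose from 1.61 ± 0.523 to 5.69 ± 1.05. CDKN1B (p27) was at 57.2 ± 0.989 and 53.6 ± 5.12 CPM (adjusted p = 0.238). The inhibitors CDKN2A and CDKN2B are listed at 0 in both groups. Of 24 p53 targets 2 were higher (CDKN1A and GDF15) and 3 lower, shares close to the 10.2% and 12.3% of all genes. The lower genes included TP53I3 (106 ± 2.39 to 30.0 ± 1.35) and TP53INP1 (17.6 ± 1.70 to 4.89 ± 0.633). The transcription factor MYC was at 594 ± 6.11 and 331 ± 13.3 CPM, a log2 fold change of -0.85 that stayed under the fold threshold.

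Keratin genes changed in both directions at 72 h. Keratins are the intermediate filaments of epithelia, and pairs of them mark the layer and the type of epithelium. The simple-epithelial pair of luminal cells rose. KRT8 was at 203, 210 and 219 CPM without Dox and 2247, 2104 and 2337 at 72 h (10.6-fold, log2 fold change 3.40, SE 0.06, adjusted p = 4.09e-21). Its partner KRT18 was at 353, 370 and 380 CPM and then 2032, 1767 and 1961 (5.22-fold). KRT7 was at 2050 ± 67.7 and 4018 ± 120 CPM, a log2 fold change of 0.97, just under the threshold. Basal keratins moved the other way, with 4 of 7 tested genes lower and none higher. KRT5, the basal-layer keratin, was at 3569, 3346 and 3649 CPM and then 1690, 1569 and 1693 (2.13-fold lower), a call lost when the fold threshold was tested (adjusted p = 0.0738). KRT17 was 3.94-fold lower (2366 ± 87.3 to 600 ± 42.4) and KRT15 14.2-fold lower (196 ± 9.57 to 13.8 ± 2.36). KRT6B fell from 5.12 ± 0.683 to 0.0446 ± 0.0773 CPM, but it shares reads with KRT6A, and the sharing left an uncertainty of up to 14.5% of its count. KRT14 (11 ± 0.965 and 10.2 ± 0.248), KRT16 (21 ± 0.882 and 18.8 ± 1.41) and KRT6A (794 ± 40.1 and 1438 ± 59.2, log2 fold change 0.86) were not called.

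Of 7 tested mucosal and hair keratins 5 were higher and 1 lower. KRT13, a keratin of mucosal linings, was at 1.34, 0.758 and 0.788 CPM without Dox and at 91.4, 76.7 and 93.9 at 72 h (90.9-fold). Its partner KRT4 had 1 count over the 3 No Dox libraries and 867 over the 3 at 72 h, a ratio of 800 at equal depth (95% exact interval 143 to 31647). The hair keratin KRT34 had 0 counts without Dox and was at 6.65, 6.01 and 7.44 CPM at 72 h, at least 131-fold higher by a floor of 3 counts over the group. KRT81, another hair keratin, rose from 2110 ± 59.6 to 7317 ± 415 CPM (3.47-fold), and its near relative KRT86 from 0.622 ± 0.0751 to 1.51 ± 0.251. KRT10, a keratin of suprabasal epidermis, fell 4.6-fold to 20.3 ± 3.04 CPM.

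**Figure D4:**
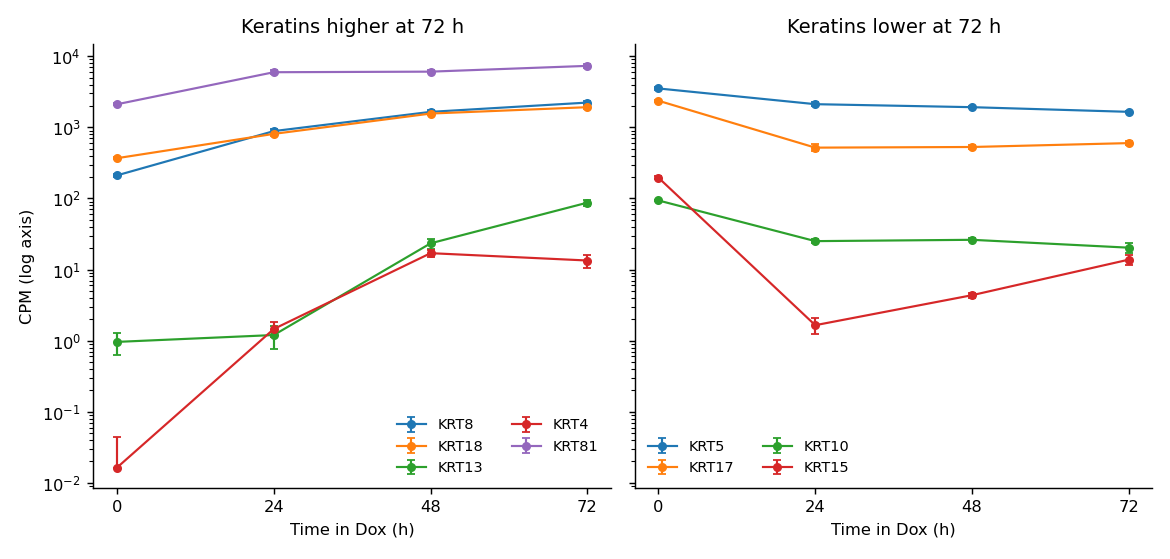
CPM (log axis) of 5 keratins called higher (left) and 4 called lower (right) at 72 h, against time in Dox in hours. Points are means of 3 libraries and bars are SD, drawn upwards only where the SD exceeds the mean, and KRT13 shows most of its rise after 24 h (1.2 CPM at 24 h and 87.3 at 72 h) while KRT15 is lowest at 24 h (1.65) and reaches 13.8 at 72 h.

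Several genes for the anchorage of basal cells were lower in mRNA, as were several basal keratins. Of 11 genes of TP63 and the hemidesmosome, 6 were lower and none higher, with a median of -1.23, against 12.3% of all genes lower. TP63, the master regulator of stratified and basal epithelium, was at 77.5, 76.5 and 78.1 CPM without Dox and 1.61, 1.38 and 1.49 at 72 h (51.9-fold lower, log2 fold change -5.68, SE 0.12, adjusted p = 6.29e-20). COL7A1, the collagen of anchoring fibrils, was 47.8-fold lower (61.5 ± 2.21 to 1.29 ± 0.590). COL17A1, the transmembrane collagen of hemidesmosomes, was at 467, 415 and 461 CPM and then 28.8, 25.6 and 26.5 (16.6-fold lower). ITGB4, the integrin of the hemidesmosome, fell from 1520 ± 63.7 to 511 ± 45.2, DST, which links it to keratins, from 621 ± 17.8 to 265 ± 26.1, and the laminin chain LAMB3 from 1224 ± 47.3 to 519 ± 34.5. ITGA6, the partner chain of ITGB4, was at 313 ± 7.87 and 308 ± 6.62 CPM (adjusted p = 0.733).

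Of 10 tested desmosome genes, DSG3, PERP and DSP were lower and PKP4 higher. The desmosomal cadherin DSG3 fell 3.81-fold to 44.7 ± 1.66 CPM, the plaque protein DSP 2.82-fold to 353 ± 23.0, and PERP 3.71-fold to 167 ± 7.30. PKP4, a plakophilin relative, rose 2.30-fold to 160 ± 2.31. Of 16 tight junction genes 2 were higher (1 with glmTreat) and 3 lower, shares close to the 10.2% and 12.3% of all genes. CGN, a cytoplasmic protein of the tight junction, was at 1.2, 0.947 and 0.838 CPM and then 55.5, 55.0 and 51.3 (54.2-fold higher), while CLDN1, a barrier claudin, was at 462, 480 and 470 and then 78.7, 81.3 and 79.1 (5.90-fold lower). TJP3 fell from 18.1 ± 2.41 to 1.89 ± 0.422. Of 7 connexins tested 4 were lower and 1 higher. GJB2 fell 2.93-fold to 5.69 ± 0.773 CPM and GJB5 2.81-fold to 14.5 ± 1.93, while GJA5 rose. GJA5, a connexin known from arteries and the conducting system of the heart, was at 0.323, 0 and 0.0985 CPM without Dox and 122, 116 and 129 at 72 h.

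Factors that set epithelial fate were mixed, with 2 of 16 tested higher and 4 lower, against 10.2% and 12.3% of all genes. The higher count was 1 without 72 h replicate 1 and with glmTreat. The ETS factors EHF (34.7 ± 2.57 to 1.40 ± 0.179 CPM, 24.8-fold) and ELF3 (101 ± 4.55 to 11.1 ± 0.446, 9.10-fold) fell. GATA3, the luminal lineage factor, rose 3.31-fold to 39.6 ± 1.43 CPM. The hormone receptor PGR is listed at 0 in both groups, and FOXA1 was at 2.12 ± 0.418 and 3.98 ± 0.3 CPM.

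Mesenchymal genes did not move as a group. Of 15 tested mesenchymal genes and factors of the epithelial-mesenchymal transition, 3 were higher, 4 lower and 8 not called, with a median of -0.17. FN1, the matrix glycoprotein fibronectin, was at 19.1, 18.1 and 17.9 CPM and then 304, 285 and 274 (15.7-fold higher), CDH2 (N-cadherin) rose from 8.48 ± 1.66 to 24.9 ± 2.34, and ZEB1 was called higher. Against that, SNAI2, a repressor of epithelial genes, was at 31.2, 30.9 and 31.2 CPM and then 5.67, 6.70 and 5.83 (5.13-fold lower), S100A4 fell from 93.8 ± 2.80 to 10.8 ± 1.56, and ZEB2 and FOXC2 were called lower. VIM (vimentin) was at 609 ± 23.0 and 447 ± 12.2 CPM (-0.45) and CDH1 (E-cadherin) at 0.61 above No Dox on the log2 scale, both under the fold threshold.

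S100 proteins, calcium-binding proteins that are abundant in stratified epithelium, fell broadly. Of 14 tested, 10 were lower and none higher, with a median of -2.03. S100A9 was at 512, 532 and 504 CPM without Dox and 3.72, 4.07 and 4.04 at 72 h (131-fold lower, log2 fold change -7.03, SE 0.09, adjusted p = 3.71e-23). Its partner S100A8, with which it forms calprotectin, was 138-fold lower (149 ± 4.85 to 1.08 ± 0.345). S100A14 fell from 1161 ± 14.5 to 152 ± 18.1 CPM, S100A6 from 1814 ± 52.2 to 540 ± 58.3 and S100A2 from 771 ± 78.8 to 155 ± 28.1. S100A10, the partner of annexin A2, did not fall (log2 fold change 0.29), and ANXA2 itself rose from 1462 ± 24.9 to 4594 ± 218.

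Genes of the matrix around microfibrils rose. Of 22 tested matricellular and elastic-fibre genes, 12 were higher and 2 lower, with a median of 1.06. MFAP5, a microfibril protein, had 1 count over the No Dox libraries and 44.5, 35.2 and 40.9 CPM at 72 h, a count ratio of 2349 (95% exact interval 421 to 92828). EFEMP1 (fibulin-3) was at 181, 177 and 183 CPM and then 1704, 1724 and 1742 (9.56-fold), and the fibrillin FBN2 at 295, 257 and 262 and then 2407, 2322 and 2182 (8.5-fold). Collagens were divided, with 4 of 14 tested higher and 5 lower. COL12A1, which associates with fibrils, rose 3.98-fold to 466 ± 20.2 CPM and the basement membrane chain COL4A1 3.13-fold to 219 ± 11.4, while COL4A6 fell 3.51-fold to 39.2 ± 1.13 and COL16A1 22.3-fold to 0.860 ± 0.248.

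Of 11 integrins that bind matrix, 4 were lower and none higher. ITGA10, a collagen receptor chain, was at 85.4, 85.1 and 82.6 CPM without Dox and 2.93, 5.39 and 4.12 at 72 h (20.4-fold lower). ITGB8 and ITGB6, which release active TGF-beta, fell 8.24-fold and 4.33-fold, and ITGA2 fell 2.30-fold. ITGB1, the chain most matrix integrins share, was at 883 ± 5.71 and 1139 ± 25.0 CPM (0.37). Contractile genes rose for 6 of 17 tested, with none lower and a median of 0.65. TAGLN, an actin-bundling protein of smooth muscle, rose 5.80-fold to 53.2 ± 3.12 CPM, the myosin light chain MYL9 from 1.89 ± 0.650 to 7.99 ± 0.882, and tropomyosin TPM1 4.03-fold to 242 ± 8.87. ACTA2, the smooth muscle actin, was not called (-0.48).

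Secreted proteases and their inhibitors went both ways, with 5 of 13 tested higher and 4 lower. The matrix proteases ADAMTS12 (0.661 ± 0.325 to 27.2 ± 1.41 CPM, 41.1-fold) and ADAMTS1 (1.39 ± 0.128 to 26.9 ± 2.83, 19.3-fold) rose. The receptor of urokinase, PLAUR, rose 4.96-fold to 27.2 ± 0.794, while urokinase itself (PLAU) and the protease inhibitor TIMP1 were called lower.

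Ligands and their signalling responses were examined next. Among 12 tested EGF-family ligands and receptors, AREG, NRG1 and EPGN were higher and HBEGF, EREG, NRG2 and NRG4 lower. NRG1, a ligand of ERBB3 and ERBB4, was at 1.84, 1.14 and 1.68 CPM and then 21.4, 21.2 and 22 (13.9-fold higher), and HBEGF at 23.2, 22 and 21.2 and then 2.69, 4.01 and 3.16 (6.73-fold lower). EREG fell from 28.9 ± 0.733 to 9.02 ± 1.22. The receptors were not called, with EGFR at 878 ± 20.2 and 528 ± 31.8 CPM (-0.73) and ERBB2 at 110 ± 1.58 and 95.0 ± 2.41. Early-response genes downstream of growth factors were examined with them. Of 16 ERK feedback genes 2 were higher and 3 lower, and of 11 AP-1 factors tested 1 was higher and 3 lower. Over all genes the shares were 10.2% higher and 12.3% lower. EGR1 was at 244, 231 and 250 CPM and then 45.9, 56.9 and 50 (4.75-fold lower), FOS at 93.6, 95.4 and 97.9 and then 7.19, 7.64 and 7.21 (13-fold lower), and JUNB 4.63-fold lower. The phosphatase DUSP6, a feedback inhibitor of ERK, fell 4.53-fold to 24.4 ± 2.81. FOSL1 and FOSL2, AP-1 subunits often found with TAZ at enhancers, were at 27 ± 0.897 and 43.5 ± 5.05 CPM (0.68) and at 372 ± 15.3 and 340 ± 17.5 (-0.13), neither called.

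The TGF-beta and BMP list had 7 genes higher and 6 lower of 21 tested. INHBA, a subunit of activin, rose from 0.676 ± 0.149 to 10.3 ± 1.23 CPM (15.3-fold), ID1, a target of BMP signals, from 79.1 ± 3.65 to 256 ± 23.2, and the BMP antagonist NOG fell 11.3-fold to 0.564 ± 0.161. For WNT signalling 4 of 21 tested were higher and 2 lower. WNT5A rose from 5.34 ± 0.970 to 24.2 ± 3.08 CPM, and the antagonist DKK1 was at 298, 323 and 317 CPM and then 56.4, 58.6 and 61.0 (5.33-fold lower). AXIN2, a standard readout of WNT/beta-catenin, differed by -0.51 and was not called. Notch genes fell, with 5 of 10 tested lower and none higher. NOTCH3 went from 9.12 ± 0.977 to 0.261 ± 0.134 CPM (34.9-fold lower), the ligand DLL1 from 13.3 ± 0.904 to 1.01 ± 0.254 (13.2-fold) and the target HES1 from 18.7 ± 1.12 to 3.27 ± 0.181 (5.71-fold). Among guidance ligands, SEMA7A rose 63.9-fold (0.824 ± 0.06 to 52.6 ± 4.43 CPM), SEMA3B 10.6-fold and NTN4 4.3-fold, while the netrin receptor UNC5B fell 8.40-fold. Their list of 27 tested VEGF, semaphorin and ephrin genes had 4 higher and 5 lower. In the insulin-like growth factor axis 3 of 10 tested were higher and 3 lower, with the lower count at 1 without No Dox replicate 1, 24 h replicate 1, 24 h replicate 3 or 48 h replicate 1, with only the 2 groups compared, with glmTreat and with no filter beyond 1 count. IRS1 was at 21.3 ± 2.95 and 49.6 ± 3.23 CPM and IGFBP6 at 93.1 ± 2.98 and 37.4 ± 4.05.

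Innate defence genes were lower at 72 h. Complement, the cascade of serum proteins that tags microbes, had 11 of 15 tested genes lower and none higher, with a median of -1.52. C3, its central component, was at 3879, 3340 and 3704 CPM without Dox and 474, 455 and 449 at 72 h (7.93-fold lower, log2 fold change -2.99, SE 0.06, adjusted p = 2.41e-20). CFB, a protease of the alternative pathway, fell 21.9-fold to 5.03 ± 0.482 CPM and C1S 8.13-fold to 3.53 ± 0.656. C1QTNF1, a C1q-related protein that is counted in this list but is not part of the cascade, fell 10.9-fold. The membrane regulator CD59 differed by -0.13.

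The list of NF-kB and TNF responses had 11 genes lower and 3 higher of 21 tested, with a median of -1.05. SOD2, the mitochondrial superoxide dismutase, was at 4994, 4924 and 4817 CPM and then 110, 106 and 111 (45.0-fold lower, log2 fold change -5.49, SE 0.05, adjusted p = 3e-25). BIRC3, an inhibitor of apoptosis in TNF signalling, fell from 818 ± 13 to 79.7 ± 6.01 and CSF3, the granulocyte growth factor, from 62.7 ± 4.48 to 1.95 ± 0.374. PTGS2 (cyclooxygenase-2), ICAM1 and LIF were the exceptions. PTGS2 was at 1.01, 1.14 and 0.739 CPM without Dox and 21.4, 16.9 and 19.1 at 72 h (19.9-fold higher), while HPGD, which degrades prostaglandins, went from 18.8 ± 0.379 to 0.13 ± 0.0876 (145-fold lower). Chemokines fell, and 7 of 10 tested chemokine genes and receptors were lower. CXCL8 was at 82.0, 86.6 and 82.8 CPM and then 0.244, 0.313 and 0.496 (239-fold lower) and CXCL1 at 168, 167 and 174 and then 1.81, 2.76 and 2.44 (72.6-fold lower). The receptor of CXCL8, CXCR1, had 2942 counts without Dox and 1 at 72 h, a ratio of 3187 (95% exact interval 572 to 125926). CCL2 was called higher. In the interleukin-1 family 5 of 8 tested were lower. IL1RL1, the receptor of interleukin-33, had 3810 counts without Dox and 3 at 72 h, a ratio of 1376 (470 to 6674), the cytokine IL1B fell 5.36-fold to 5.98 ± 0.837 CPM and IL1R1 4.65-fold to 9.29 ± 0.144.

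Interferon-stimulated genes were split, with 6 of 25 tested higher and 4 lower and a median of 0.05. IFIT1 and IFIT2, which bind viral RNA, rose from 1 ± 0.237 to 16.8 ± 1.72 CPM and from 2.94 ± 0.213 to 24.2 ± 2.37, while OAS1, which activates RNase L, fell from 43.5 ± 1.72 to 4.47 ± 0.198 and IFI44L from 25.0 ± 1.24 to 5.54 ± 0.482. Checkpoint ligands were higher for 5 of 10 tested and none was lower. CD274 (PD-L1) was at 0.922, 1.26 and 1.18 CPM and then 12.1, 13.5 and 13 (11.4-fold), PDCD1LG2 (PD-L2) at 0.337 ± 0.0813 and 6.56 ± 0.746 (19.4-fold), and NECTIN2 and PVR, ligands of TIGIT, rose 4.69-fold and 2.31-fold. Of 15 genes of class I antigen presentation, PSMB9 was higher and TAPBP lower, both calls lost in the test of the fold threshold (adjusted p = 0.117 and 0.196). Secreted defence proteins were lower for 4 of 8 tested, among them LCN2, which binds siderophores (39.1 ± 1.31 to 4.24 ± 0.382), and SLPI, an elastase inhibitor (162 ± 7.38 to 56.7 ± 7.19).

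Amino-acid stress genes of the ATF4 programme were higher for 13 of 30, with none lower (1 without 72 h replicate 1) and a median of 0.65. PHGDH, the entry enzyme of serine synthesis, was at 29.6, 27.5 and 29.3 CPM and then 262, 256 and 276 (9.18-fold), asparagine synthetase ASNS at 24.3, 24.3 and 24.1 and then 161, 171 and 164 (6.81-fold), and the neutral amino acid transporter SLC1A4 rose 9.39-fold to 13.8 ± 0.121. The lipoprotein receptor VLDLR, also in this list, rose from 0.194 ± 0.0833 to 10.4 ± 0.438. ATF4 itself differed by 0.29 and was not called. Of 20 cytosolic tRNA synthetases AARS1, MARS1 and WARS1 were higher, and of 19 ER chaperones 5 were higher, none of them above 2.64-fold. Cholesterol synthesis had 10 of 22 tested higher and none lower, with a median of 0.92. FDFT1, which makes squalene, rose 3.01-fold to 682 ± 24.6 CPM and MVD, an enzyme of the mevalonate pathway, 3.11-fold to 153 ± 13.3. In fatty acid synthesis 4 of 18 tested were higher and 2 lower. ACLY, which supplies acetyl-CoA, rose 2.83-fold to 850 ± 9.40 while ACSL1, which activates fatty acids, fell 4.91-fold to 135 ± 1.89. Glycolysis and hypoxia genes were higher for 5 of 29 with none lower (1 without No Dox replicate 3 or 72 h replicate 2), led by ADM, a vasodilator peptide (9.56 ± 1.94 to 135 ± 2.16), and the enolase ENO2 (1.41 ± 0.583 to 10.1 ± 0.487).

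Enzymes that handle aldehydes, steroids and retinoids fell. Of 17 tested, 10 were lower and 1 higher, with a median of -1.97. ADH1B, an alcohol dehydrogenase, was at 21.5, 21.9 and 21 CPM without Dox and had 0 counts at 72 h, at least 447-fold lower, and DHRS9, a retinol dehydrogenase, was at least 282-fold lower. Both passed the filter on counts through other libraries, so their calls could hardly be other than lower. HSD17B2, which inactivates oestradiol, was at 63.0, 59.5 and 66.4 CPM and then 0.0978, 0.0626 and 0.305 (406-fold lower), and SULT1E1, which sulphates oestrogens, was 161-fold lower (32.2 ± 2.19 to 0.200 ± 0.0611). Of 20 tested NRF2 and glutathione genes 6 were lower and 1 higher. The aldo-keto reductases AKR1C1, AKR1C2 and AKR1C3, which are close paralogs, were 77.1-fold, 78.6-fold and 31.4-fold lower, and AKR1C2 was at 515, 493 and 513 CPM and then 6.03, 6.82 and 6.50. NQO1, a standard NRF2 target, differed by -0.49 and was not called. ABC transporters were lower for 7 of 12 tested, including the cholesterol exporter ABCG1 (25.1 ± 1.38 to 0.379 ± 0.322 CPM) and ABCC3 (527 ± 10.2 to 116 ± 5.16), while ABCG2 was called higher.

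Genes of a mixed list of FOXO and quiescence genes were lower for 11 of 17, with none higher and a median of -1.32. TXNIP, which limits glucose uptake, was at 1407, 1479 and 1454 CPM without Dox and 181, 151 and 169 at 72 h (8.66-fold lower, log2 fold change -3.11, SE 0.06, adjusted p = 1.94e-20). PDK4, a kinase that restrains pyruvate dehydrogenase, fell 17.5-fold to 5.67 ± 0.560 CPM, DEPP1 194-fold to 0.215 ± 0.166, and the PI3K inhibitor PIK3IP1 from 7.36 ± 0.998 to 0.0743 ± 0.0658.

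Some housekeeping groups shifted without calls. All 26 proteasome genes lay above No Dox, by 0.16 to 0.96 on the log2 scale (median 0.62), and none was called in the main fit. However, 1 was called higher without No Dox replicate 1 or 72 h replicate 1, and 2 with effective-length offsets. Of 65 cytosolic ribosomal protein genes 63 lay below it, with a median of -0.39 and no call, and 35 nuclear genes of the respiratory chain had a median of -0.01 with no call. None of 23 ribosome biogenesis genes was called (median 0.20). Of the 13 mitochondrially encoded mRNAs, MT-ND1 (1533 ± 35.9 to 567 ± 72.6 CPM) and MT-ND5 (1537 ± 54.2 to 642 ± 28.2) were lower and 11 were not called. The make-up of the libraries differed as well. Mitochondrial rRNA made up 0.804 ± 0.0226% of counts without Dox and 0.182 ± 0.0232% at 72 h, mitochondrial mRNA 4.35 ± 0.137% and 3.04 ± 0.134%, lncRNA 1.26 ± 0.0576% and 0.969 ± 0.0245%, and ribosomal protein mRNA 8 ± 0.183% and 6.09 ± 0.423%. Replication-dependent histone mRNAs, which normally lack a poly(A) tail, made up 0.00609 ± 0.000498% and 0.00155 ± 4.76e-05%, and 6 of 8 tested were lower. By exact permutation of the libraries (two-sided) every such difference gave p = 0.1, and groups of 3 cannot give less. These libraries were poly(A)-selected, and the part of this shift in the calls for lncRNA and histone genes was not tested.

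**Figure D5:**
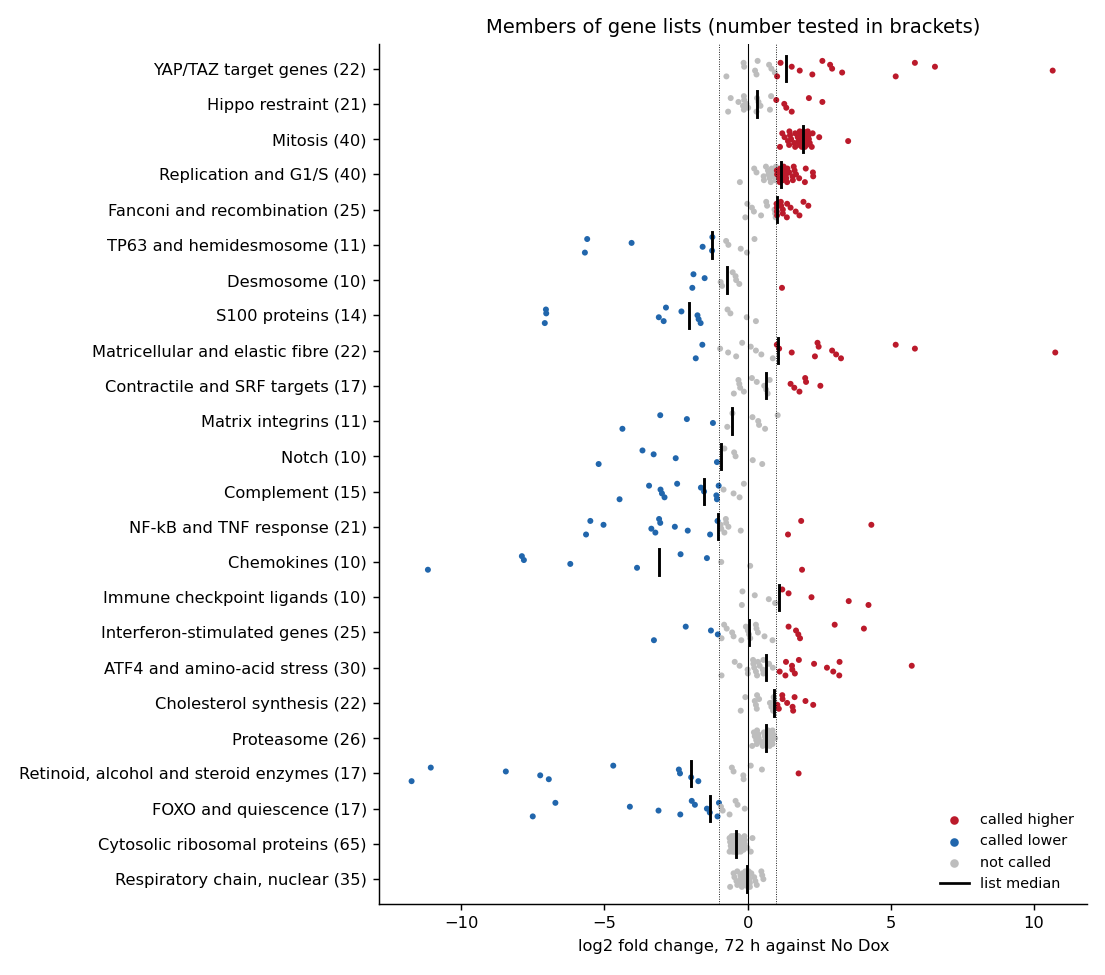
Log2 fold change of 72 h against No Dox for each tested member of 24 gene lists, with the number tested in brackets, called genes in red (higher) or blue (lower) and list medians as black bars. All 40 mitosis genes lie right of the threshold at 1 (dotted), complement and chemokine genes lie mostly left of -1, and the proteasome and ribosomal protein genes lie between the dotted lines.

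Of the tested markers of other cell types, 2 of 3 for fibroblasts, 3 of 3 for endothelium and 1 of 2 for leukocytes were called lower. Another 5, 3 and 4 markers of these lists had too few counts to be tested. DCN and the endothelial PECAM1 had 3 and 2 counts at 72 h. They passed the filter on counts through other libraries, so their calls could hardly be other than lower. Without No Dox replicate 1 or 72 h replicate 3, 1 fibroblast marker was also called higher. The summed level of 8 fibroblast markers was 54.5 to 56.4 CPM without Dox and 2.02 to 3.44 at 72 h, and most of the No Dox sum came from DCN (decorin), which had 2892 counts without Dox and 3 at 72 h, while COL1A2, COL3A1, PDGFRA and THY1 are listed at 0 in both groups. The sum of 6 endothelial markers was 36.6 to 37.9 CPM and 12 to 13.4 CPM, most of it KDR (27.6 ± 0.462 and 11.7 ± 0.623), with CDH5 at 0. The sum of 6 leukocyte markers was 26.1 to 31.3 and 7.20 to 7.88 CPM, most of it CD14 and CD68, with CD3E at 0. In bulk RNA, fewer cells that express a gene and less RNA of it per cell cannot be told apart.

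By log2 fold change among called protein-coding genes of at least 5 CPM, the steepest rises besides those above were OLR1, the receptor of oxidised LDL (0.138, 0 and 0.0985 CPM, then 114, 93.3 and 115), the chloride channel protein CLIC5 (0 counts without Dox, at least 127-fold higher), PSG4, a pregnancy-specific glycoprotein (count ratio 547, 95% exact interval 151 to 4525), the ubiquitin ligase RNF150 (225-fold) and the choline transporter SLC44A2. SLC44A2 was at 1.2, 1.58 and 1.77 CPM and then 286, 282 and 289 (188-fold, log2 fold change 7.56, SE 0.09). The steepest falls included MYBPC1, a myosin-binding protein of slow muscle, which was at 23.0, 26.0 and 24.2 CPM without Dox and had 0 counts at 72 h (at least 507-fold lower). COL28A1 was at least 153-fold lower, and the lipid transporter ABCA9 had a count ratio of 692 (191 to 5722). RIPOR2, an inhibitor of RhoA, was at 197, 190 and 197 CPM and then 0.293, 0.564 and 0.305 (502-fold lower).

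By absolute change in CPM, which is not corrected for transcript length, beta-actin (ACTB) rose from 1805, 1715 and 1898 to 7690, 7259 and 7678 CPM (4.18-fold), the chaperone HSP90AA1 from 871 ± 8.07 to 5876 ± 295 (6.75-fold) and the tubulin TUBA1B from 528 ± 18.0 to 2680 ± 133 (5.08-fold). FTH1 and GLUL were among the 8 largest falls in CPM. FTH1, the ferritin heavy chain, was at 7381, 7477 and 7492 CPM and then 734, 702 and 712 (10.4-fold lower, log2 fold change -3.38, SE 0.05, adjusted p = 2.56e-22), and glutamine synthetase GLUL at 2216, 2175 and 2260 and then 195, 192 and 207 (11.2-fold lower). Among lncRNA genes, SFTA1P rose 201-fold (0.310 ± 0.181 to 62.4 ± 6.13 CPM) and LINC01133 131-fold, while LINC02015 fell 31.8-fold and LINC01503 26.6-fold.

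To place 72 h in time, its libraries were also compared with those at 24 h and 48 h. Against 24 h, 1227 genes were called higher (8.28%) and 592 lower (3.99%), and against 48 h 341 were higher (2.3%) and 139 lower (0.938%), 3.24% in all. Adjusted p alone passed for 60.7% of genes against 24 h and 38.7% against 48 h. Among protein-coding genes called both against No Dox and against 24 h in the same direction, with at least 5 CPM in the higher of 24 h and 72 h, the steepest rises after 24 h were KRT13 (1.2 CPM at 24 h, 87.3 at 72 h), the cardiac troponin TNNT2 (0.955 and 41.6), the serpin SERPINB3 (0.319 and 8.40), VIPR1, a receptor of vasoactive intestinal peptide (0.361 and 5.69), CLIC3 (2.12 and 28.4) and RNF150 (2.52 and 28.6). All 6 were also called higher at 72 h than at 48 h. Further falls within the same limits were led by CXCL1 (35.8 and 2.33), IL7R (38.6 and 6.68), COL17A1 (144 and 27), S100A9 (20.8 and 3.94), S100A2 (782 and 155) and ANGPTL4, a lipase inhibitor (132 and 26.7).

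Several genes that lay below No Dox at 72 h were nonetheless higher than at 24 h. Of the 17 FOXO and quiescence genes, 9 were higher at 72 h than at 24 h, with a median of 1.59, and none lower. Of all genes, 8.28% were higher and 3.99% lower in that comparison. TXNIP had been at 12.9 CPM at 24 h and 51.6 at 48 h, and at 167 CPM at 72 h it was still 8.66-fold below No Dox. FOS (1.32 CPM at 24 h and 7.34 at 72 h), EGR1 (15.9 and 50.9), KRT15 (1.65 and 13.8), ELF3 (1.39 and 11.1) and DSG3 (12.9 and 44.7) had the same order of levels. KDR, the VEGF receptor, was at 0.294 CPM at 24 h and 11.7 at 72 h. In the other direction, NRG1 had been at 53 CPM at 24 h, against 21.5 at 72 h. Interferon-stimulated genes were higher than at 24 h for 11 of 25, with a median of 0.75, and among ATF4 genes 9 were higher and 1 lower. WWTR1 itself differed little over this time, at 887 CPM at 24 h, 844 at 48 h and 994 at 72 h. CCN1 was at 1285 CPM at 24 h and 1306 at 72 h, while ANKRD1 was at 99, 177 and 400 CPM at the 3 times and was called higher at 72 h against both earlier times.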

How the data were processed

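RNA-seq of MCF10A cells with inducible TAZ-4SA was analysed from the gene tables of 12 libraries, with groups and replicate numbers taken from the sample labels. The authors aligned poly(A)-selected libraries to GRCh38 with STAR and counted with RSEM against GENCODE 22. For both tools the version, and for RSEM the strandedness option, is not given in the sources used here. The deposited tables hold expected counts, TPM and FPKM values and effective lengths for 60483 genes. Expected counts were rounded for all tests, the deposited TPM and effective lengths served for WWTR1, composition and alternatives, and the deposited FPKM values were not used. Genes were named from GENCODE 44 by stable identifier (56321) or by transcript identifiers (393), and 3769 had no name.

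Genes were filtered with filterByExpr, normalised with TMM and fitted with 1 mean per group over all 12 libraries in edgeR 4.0.16 (R 4.3.3), and contrasts were tested with the quasi-likelihood F test with Benjamini-Hochberg adjustment over 14822 genes. SE were the absolute log2 fold change divided by the square root of F. Simulated data with known changes were recovered at 92% of 2-fold and 99% of 4-fold genes by adjusted p (72 h against No Dox, 14345 genes). By the full call rule 49% of 2-fold and 99% of 4-fold genes were called. The changed genes were drawn only from those above a minimum count and were far fewer than the genes called here. Recovery of genes with low counts was not tested. Bounds used a floor of 3 counts over the group, and ratios with 1 to 3 counts in the lower group have exact intervals at the 95% level that cover counting error only. Promoters were RefSeq sequences of GRCh38.p14. Alternatives included DESeq2 1.42.0, other scalings and filters, glmTreat, effective-length offsets, leaving out each library in turn and a block for the replicate number.

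The members and the 65 gene lists were chosen with earlier results of these data known. Genes were named by a rule: a panel of TAZ, TEAD and target genes, the 10 steepest protein-coding rises and falls of at least 5 CPM without overlap of libraries, up to 4 called members per list of at least 5 CPM, the 8 largest rises and falls in CPM, the 4 steepest lncRNA changes each way, and the 6 steepest changes each way after 24 h. Small lists were named in full where needed, and other members named only as the end of a range or to account for a count were chosen after their values were seen. Some genes that the rule names are not reported here. Same-numbered libraries did not deviate together (r from -0.205 to 0.32 in 18 pairs, 3 over 0.1), so the main fit has no block.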

Additional observations from a re-analysis of the deposited data

Results flagged for a closer look

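Among the genes chosen by the naming rule, 3 were called in opposite directions at 24 h and at 72 h, each against No Dox. An adjusted p below 0.05 for 72 h against 24 h, in the same edgeR quasi-likelihood fit, was also required. The differences below therefore describe the chosen genes and are not separate support. GDF15, a stress-induced cytokine, had a log2 fold change of -1.46 at 24 h (adjusted p = 2.17e-07) and of 1.62 at 72 h (adjusted p = 1.1e-09), a difference of 3.07 (SE 0.16, adjusted p = 1.19e-12). SERPINB3, an inhibitor of cysteine proteases, had -2.99 at 24 h (adjusted p = 2.31e-08) and 1.67 at 72 h (adjusted p = 1.09e-07), a difference of 4.66 (SE 0.27, adjusted p = 7.26e-12). ANGPTL4 had 1.27 at 24 h (adjusted p = 1.34e-11) and -1.03 at 72 h (adjusted p = 2.61e-09), a difference of -2.3 (SE 0.09, adjusted p = 1.5e-14). The 72 h call of ANGPTL4 was lost when the fold threshold was tested (adjusted p = 0.774) and without No Dox replicate 1 (-0.96), No Dox replicate 3 (-0.97) or 72 h replicate 1 (-1.0). The comparisons share the No Dox libraries.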

How the results depend on the processing

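Of 233 called genes chosen by the naming rule, 219 kept their direction and call in all 25 settings, 14 lost the call in at least 1 and 0 reversed. SERPINB8, INSR, ALDOC, TKT and ANGPTL4 lost it when 1 of 12 libraries was left out. Other list members were checked through the counts of their lists only. When the fold threshold itself was tested (glmTreat), 976 genes were higher and 1179 lower at 72 h against No Dox, 465 and 190 against 24 h, and 18 and 8 against 48 h. With no fold threshold the counts were 5088 and 5164, 4517 and 4475, and 2763 and 2979. Among protein-coding genes only, 219 were higher at 72 h than at 48 h, with fewer genes tested. The WWTR1 ratio was 42.3 in TPM. With glmTreat, higher counts fell from 5 to 2 for ER chaperones and from 1 to 0 for the NRF2 and retinoid lists, and lower counts from 5 to 3 for collagens and the VEGF list, from 4 to 2 for interferon-stimulated genes and from 7 to 4 for ABC transporters.

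Leaving out 1 library gave 1497 to 1557 higher and 1800 to 1939 lower genes against No Dox, 1129 to 1262 and 547 to 634 against 24 h, and 306 to 361 and 123 to 145 against 48 h. The differences in composition were then -0.635 to -0.61 percentage points for mitochondrial rRNA, -1.39 to -1.24 for mitochondrial mRNA, -0.321 to -0.261 for lncRNA, -0.00482 to -0.00435 for histones, -2.14 to -1.73 for ribosomal proteins and 2.3 to 2.42 for other protein-coding genes. The WWTR1 ratio was 13.4 to 14.2 and that of its effective length 0.332 to 0.359.

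With the replicate number as a block, 1496 genes were higher and 1825 lower against No Dox, 1216 and 579 against 24 h, and 338 and 140 against 48 h. The numbers did not pair the libraries. With 3 libraries per group an exact permutation test of 1 value cannot go below p = 0.1.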

Other observations

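Of 7 tested genes of the cornified envelope 1 was higher (KLK10, at 0 CPM without Dox and 0.0926 at 72 h, adjusted p = 0.0323 by edgeR) and 1 lower. KLK10 was not called without any 1 of the No Dox libraries, without 72 h replicate 3, with only the 2 groups compared, with glmTreat or at a minimum of 1 CPM, and the lower count was also 0 under the last 2 settings. EVPL, an envelope scaffold, was at 85.3 ± 2.62 CPM without Dox and 81.2 ± 3.07 at 72 h. Of 8 clade B serpins 3 were higher and 1 lower, with the lower count at 0 without 72 h replicate 1 or 2 and at 2 without No Dox replicate 2. That count was also 0 with effective-length offsets and with glmTreat. SERPINB1, an inhibitor of neutrophil proteases, rose from 60.7, 64.3 and 63.1 CPM to 149, 137 and 144 (2.29-fold), and SERPINB8 fell from 41.4 ± 1.14 to 20.2 ± 1.88.

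Of 24 lysosomal genes 2 were higher and 3 lower, shares close to the 10.2% and 12.3% of all genes. The protease CTSD fell 2.91-fold to 144 ± 11 CPM and TFEB, a regulator of lysosomal genes, 2.85-fold to 4.99 ± 0.382. Of 13 tested prostaglandin genes 3 were higher (1 with glmTreat) and 3 lower, with PTGS1 at 6.58 ± 0.234 and 1.56 ± 0.282 CPM. Of 5 tested metallothioneins, which bind zinc and copper, only MT1L was called, as lower, and not with glmTreat. MT2A was at 2731 ± 117 CPM without Dox, 1272 at 24 h and 3013 ± 347 at 72 h. In this list 3 members were higher at 72 h than at 24 h, against 8.28% of all genes. Of 3 tested hormone-responsive luminal markers GATA3 was higher and PRLR lower.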
